A study of Mus musculus with 12 samples.

Results

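The miR-200 family consists of 5 mature miRs with near-identical sequences, mmu-miR-200b-3p, mmu-miR-200a-3p, mmu-miR-429-3p, mmu-miR-200c-3p and mmu-miR-141-3p (written without the species prefix from here on), and their levels are described here in 12 fetal liver libraries. The members were taken by name, as the 3p arms of the 5 hairpins of the family. Each of the 5 had its own entry among the 1927 miRs of the count table, none was merged with another miR under a joint name, and all 5 passed the filter on low counts that left 388 miRs for testing. The miRs were measured by miR-seq, which sequences the short RNAs of a tissue, in livers of female fetuses at E18.5, shortly before birth. The groups were 5 wild-type (WT) fetuses and 7 littermates that had inherited a deletion of Mir483 from the father (Mir483Pat-KO), with 1 library per fetus, all on a C57BL/6J background. Mir483 is a miR gene inside the imprinted Igf2 gene, the copy on the maternal chromosome was intact in both groups, and the deletion came from targeted ES cells and was carried in the germline, so that every cell of the fetus lacked the paternal copy.

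Members of the miR-200 family are characteristic of epithelial cells, where they repress the transcription factors Zeb1 and Zeb2 and thereby keep up E-cadherin and epithelial junctions. Loss of the family is a known feature of the transition from epithelial to mesenchymal cells. In liver, the cells best known for the family are those of the bile ducts, whereas hepatocytes are dominated by miR-122-5p.

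The sequences are shown because the family divides in different ways by seed and by gene cluster. Each is printed 5′ to 3′ as RefSeq gives it on GRCm38.p6, with the seed, bases 2 to 8 counted from the 5′ end, in capitals.
miR-200b-3p: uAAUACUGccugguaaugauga
miR-200c-3p: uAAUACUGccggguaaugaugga
miR-429-3p: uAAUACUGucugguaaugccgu
miR-200a-3p: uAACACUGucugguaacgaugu
miR-141-3p: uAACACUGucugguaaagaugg
The first 3 share the seed AAUACUG and the last 2 share AACACUG, so the seeds differ at a single base. Among the 1679 mature mouse miRs in the RefSeq table, no other carried either seed.

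By position, the family lies in a pair of clusters. Mir200b (chr4:156055681-156055750), Mir200a (chr4:156054896-156054985) and Mir429 (chr4:156053905-156053987) follow each other on the minus strand of chromosome 4, with 695 and 908 bases between neighbouring hairpins. All 3 lie in introns of the protein-coding gene Ttll10 on the same strand. They also lie inside the non-coding gene Gm13648, where Mir200b and Mir200a are intronic and all 83 bases of Mir429 are exonic (GENCODE M21). Mir200c (chr6:124718322-124718390) and Mir141 (chr6:124717914-124717985) lie 336 bases apart on the minus strand of chromosome 6, in an intron of the non-coding antisense gene Gm15884. On the same strand, 31 bases of Mir141 also lie in an exon of the gene Gm29008. Each cluster therefore holds members of both seeds. Over the first 22 bases, the closest pairs stand across the clusters and share a seed. miR-200b-3p and miR-200c-3p differ at 2 positions (U11G and A22G, the base of miR-200b-3p first), and miR-200a-3p and miR-141-3p also differ at 2 (C17A and U22G, the base of miR-200a-3p first). How the authors' counting treated reads with a sequencing error at these positions was not tested, and the low count of miR-200c-3p beside that of miR-200b-3p is uncertain to that extent.

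Library depth was between 658665 and 1211160 counts on miRs, and 3 counts, the floor used here, were 2.58 to 4.68 CPM (counts scaled to a common library size, here with TMM factors of 0.960 to 1.07). The deleted miR checked the labels. miR-483-3p had 733 to 1281 counts in WT and 0 to 19 in Mir483Pat-KO, and miR-483-5p had 245 to 371 in WT and 0 to 4 in Mir483Pat-KO (log2 fold changes of -6.20 and -7.52). The hepatocyte marker miR-122-5p was at 118609 to 169818 CPM in every library. Of the pancreatic markers, miR-216a-5p was at 0 in all 12 libraries, and miR-217-5p lay between 0 and 11.8 CPM with a median of 8.97 CPM. No list of markers fixed here identifies bile duct cells apart from the members themselves, so the epithelial source of the family in these livers could not be checked with miRs alone. In bulk liver, fewer cells of a type and less RNA per cell cannot be told apart.

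miR-429-3p was the most abundant member in every library. Its level was 1660, 1189, 1169, 1349 and 885 CPM in the 5 WT livers, and it ran from 808 over a median of 1014 to 1253 CPM in Mir483Pat-KO. It supplied 68.1% to 83.2% of the reads of the family, more than the other 4 members together in each library. The highest level was in WT 1 and the lowest in Mir483Pat-KO 7, and the genotypes overlapped.

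miR-200b-3p and miR-200a-3p, made from the same stretch of chromosome 4, came next and lay close together. miR-200b-3p was measured at 146, 117, 138, 119 and 140.98 CPM in WT and from 117 over 150.3 to 178 CPM in Mir483Pat-KO. miR-200a-3p was measured at 125, 110.2, 128, 113 and 128 CPM in WT and from 125 over 159 to 192 CPM in Mir483Pat-KO. The 5 WT values of miR-200a-3p formed the narrowest range of the family relative to its mean, and 6 of the 7 Mir483Pat-KO livers lay above all of them, the exception being Mir483Pat-KO 3. For miR-200b-3p, 5 of the 7 Mir483Pat-KO livers lay above all WT livers and 1 lay below them.

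The members from chromosome 6 were lower. miR-141-3p was measured at 52.4, 85.5, 122, 78.0 and 26.2 CPM in WT and from 34.2 over 76.4 to 129 CPM in Mir483Pat-KO. miR-200c-3p was measured at 12.02, 9.27, 18.8, 4.28 and 10.1 CPM in WT and from 6.58 over 12.4 to 18.3 CPM in Mir483Pat-KO. Both spanned a wide range within each genotype, and the genotypes overlapped over nearly the whole of it. Since miR-200c-3p rested on 4 to 14 counts per library, its values lay just above the floor.

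The order of levels was thus miR-429-3p, then miR-200b-3p and miR-200a-3p, then miR-141-3p, then miR-200c-3p. miR-200b-3p and miR-200a-3p lay close together. The ratio of the former to the latter within a library was 1.05 to 1.16 in WT, above 1 in every WT liver, and 0.832 to 1.06 in Mir483Pat-KO. The ranges of both were also met by miR-141-3p, whose highest libraries reached 122 and 129 CPM. miR-429-3p was above every other member and miR-200c-3p below every other member in each library. Mature miRs need no correction for length, but the ligation steps of small RNA libraries favour some ends over others, so this is an order of reads and not of molecules.

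**Figure D1:**
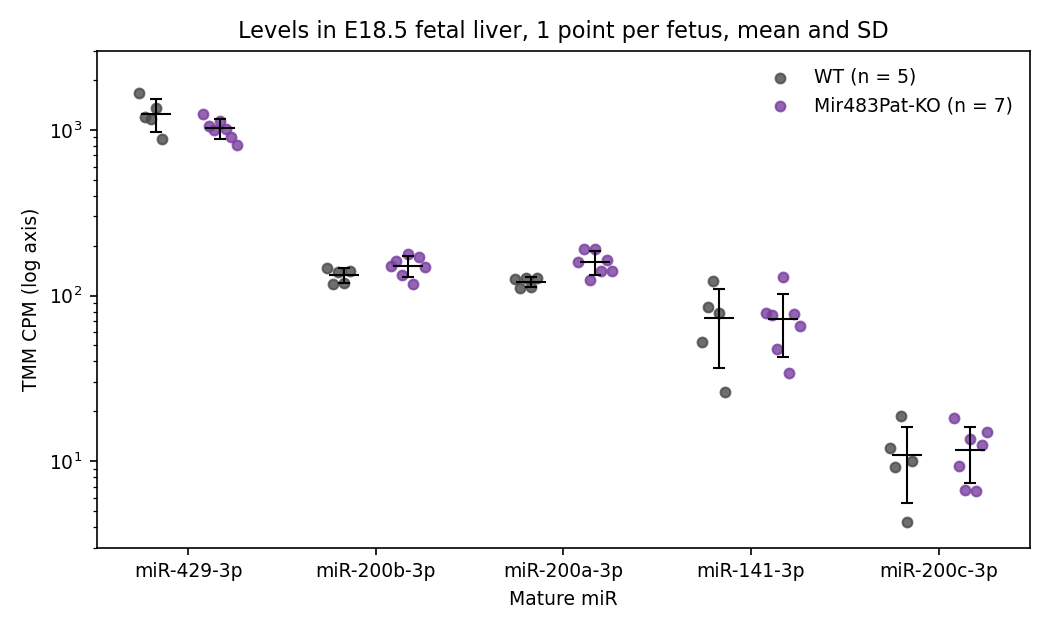
Levels of the 5 members as TMM CPM on a log axis, with 1 point per fetus and the mean and SD of each genotype in black. miR-429-3p lay between 808 and 1660 CPM, miR-200b-3p and miR-200a-3p between 110.2 and 192 CPM, and the widest relative spread within a genotype was that of miR-141-3p and miR-200c-3p.

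The members also differed in how much they varied between livers of the same genotype. The coefficient of variation within genotype was 12.8% for miR-200b-3p and 14.4% for miR-200a-3p, where counting error alone gives 9.25% and 9.27%. For miR-429-3p it was 18.9% against a counting error of 3.37%. For miR-141-3p it was 44.9% against 14.1%, so that its spread between fetuses went well beyond counting. miR-200c-3p varied by 41.7%, but its counts alone give 35.3%. In edgeR's own terms the biological coefficient of variation was 0.382 for miR-141-3p and 0.296 for miR-200c-3p, against a median of 0.148 over all miRs tested. For miR-200b-3p, miR-200a-3p and miR-429-3p it was 0.115, 0.119 and 0.158.

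The reads of the chromosome 4 cluster outnumbered those of the chromosome 6 cluster in all 12 livers. The ratio of the summed 3p counts, (miR-200b-3p + miR-200a-3p + miR-429-3p) to (miR-200c-3p + miR-141-3p), was 30.0, 14.9, 10.2, 19.2 and 31.8 in WT and ran from 10.5 over 16.1 to 31.2 in Mir483Pat-KO. Such a ratio is taken within a library and does not depend on scaling. It averaged 21.2 ± 9.42 over the WT livers (SD, n = 5) against 17.9 ± 7.06 over the Mir483Pat-KO livers (SD, n = 7). All 7 Mir483Pat-KO values lay within the WT range, and the difference of the mean log2 ratios, -0.21, was smaller than the SD between WT fetuses, 0.69. Without miR-429-3p, the ratio was 3.75 ± 2.23 in WT and 4.05 ± 1.21 in Mir483Pat-KO, again with full overlap. Across all livers the cluster ratio spanned a factor of 3.13, and the share of the family read from chromosome 4 lay between 91.0% and 97.0%.

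Within the chromosome 4 cluster, the ratio of miR-429-3p to miR-200a-3p was 13.2, 10.8, 9.16, 11.9 and 6.92 in WT. In Mir483Pat-KO it ran from 5.51 over 5.90 to 7.97. Here 4 of the 7 Mir483Pat-KO livers lay below all WT livers, and the other 3 lay above WT 5 only. The means were 10.4 ± 2.46 in WT and 6.53 ± 1.12 in Mir483Pat-KO, a difference of -0.65 on the log2 scale beside SDs of 0.37 and 0.24. The ratio of miR-429-3p to miR-200b-3p was 9.52 ± 2.17 in WT and 6.87 ± 1.34 in Mir483Pat-KO, with 2 of 7 livers below all WT livers. The ratio of miR-200b-3p to miR-200a-3p was 1.09 ± 0.0451 in WT and 0.959 ± 0.0979 in Mir483Pat-KO, with 5 of 7 below all WT livers. These ratios combine members whose own differences are given next and were not tested.

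**Figure D2:**
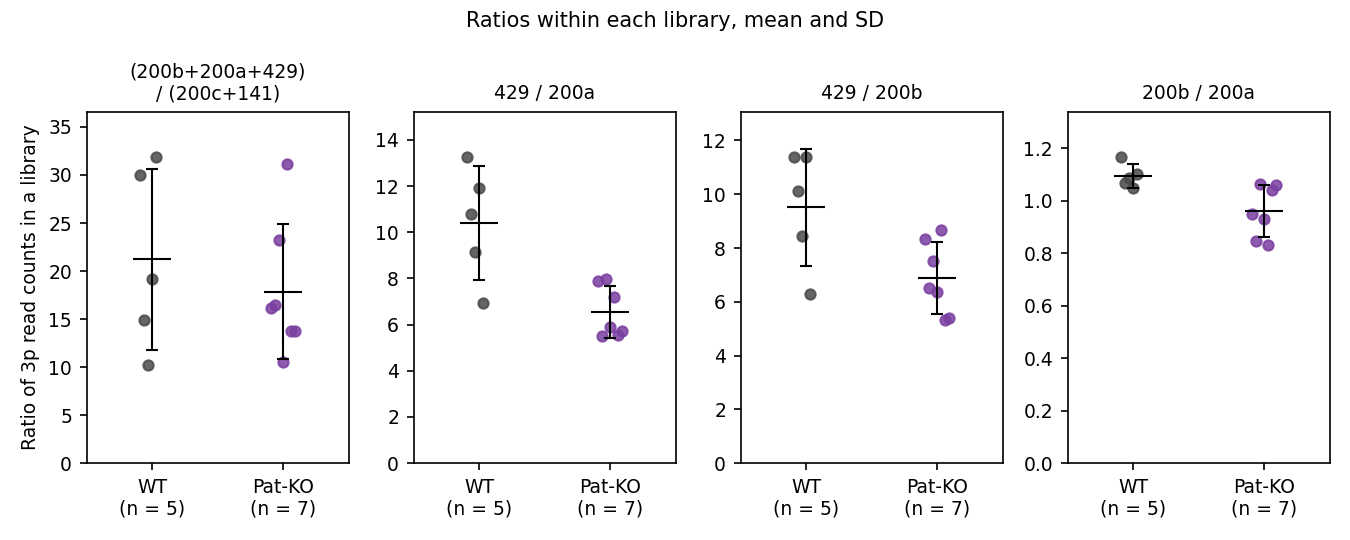
Ratios of 3p read counts within each library, 1 point per fetus, with the mean and SD of each genotype in black; every vertical axis starts at 0. The cluster ratio on the left overlapped fully between genotypes, with 10.2 to 31.8 in WT against 10.5 to 31.2 in Mir483Pat-KO, whereas the ratio of miR-429-3p to miR-200a-3p beside it spanned 6.92 to 13.2 in WT against 5.51 to 7.97 in Mir483Pat-KO.

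Within the chromosome 6 cluster, reads of miR-141-3p exceeded those of miR-200c-3p in every library, by 2.60-fold to 18.3-fold. The highest ratio was in WT 4, which had 4 reads of miR-200c-3p, and the genotypes overlapped.

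By seed, the pair miR-200a-3p and miR-141-3p supplied 12.4% ± 2.53 of the reads of the family in WT (SD, n = 5) against 16.3% ± 2.59 in Mir483Pat-KO (SD, n = 7). Of the 7 Mir483Pat-KO livers, 4 lay above all WT livers. With miR-429-3p left out, the shares were 57.3% ± 5.16 and 58.3% ± 2.72. The summed level of the family was 1587 ± 290.0 CPM in WT and 1417 ± 184 CPM in Mir483Pat-KO.

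Whether loss of paternal Mir483 was accompanied by a change in the family was examined with edgeR's quasi-likelihood F-test over all 388 miRs. None of the 5 members was called a differentially expressed miR (DEM) at an adjusted p under 0.05, beside 8 of the 388 miRs tested (2.06%), 4 of them higher and 4 lower in Mir483Pat-KO (1.03% in each direction). At an unadjusted p under 0.05, 2 of the 5 members passed, miR-200a-3p and miR-429-3p, beside 17.5% of all miRs tested. DESeq2 called miR-200a-3p, but not miR-200b-3p or miR-429-3p, and its own filter left miR-200c-3p and miR-141-3p without an adjusted p. Its calls were 6.70% of all 388 miRs, a share that counts miRs without an adjusted p as not called. With limma-voom none of the 5 was called, beside 2.58% of all miRs. In no member were the genotypes fully apart, which held for 2.84% of the miRs tested. The median log2 fold change over all miRs tested was 0.0028.

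miR-200a-3p averaged 121 ± 8.45 CPM over the WT livers (SD, n = 5) against 159 ± 25.6 CPM over the Mir483Pat-KO livers (SD, n = 7). Its log2 fold change was 0.39 (SE 0.114, 95% interval 0.15 to 0.63), with an adjusted p of 0.0892 by edgeR's quasi-likelihood test, and it ranked 15th by p. DESeq2 gave 0.37 with an adjusted p of 0.0389. The unadjusted p was 0.00467 by DESeq2 and 0.00345 by edgeR's quasi-likelihood test. DESeq2 had the larger unadjusted p but adjusted over fewer miRs, since its own filter left some out. Without Mir483Pat-KO 3, the liver of that genotype with the lowest level, edgeR gave 0.43 with an adjusted p of 0.0461. The two-sided exact permutation test of its CPM gave p = 0.0139, or 0.174 after adjustment over all miRs. In that permutation test even miR-483-5p, whose genotypes do not overlap and whose p was the smallest the test can give, 0.00126, had an adjusted p of 0.0816. The position of miR-200a-3p relative to the threshold therefore depended on the tool, with the set of miRs it adjusts over, and on 1 library.

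miR-429-3p was 1250.3 ± 284 CPM in WT and 1023 ± 145 CPM in Mir483Pat-KO. Its log2 fold change was -0.29 (SE 0.131, 95% interval -0.57 to -0.014), with an adjusted p of 0.253 by edgeR's quasi-likelihood test and p = 0.0909 by the exact permutation test. Without WT 1, its highest library, the value was -0.17. The labels carry a number for each library, read here as an animal number. These numbers fall into a lower range (4 WT and 4 Mir483Pat-KO) and an upper range (1 WT and 3 Mir483Pat-KO). In the lower range miR-429-3p lay between 995 and 1660 CPM and in the upper range between 808 and 1014 CPM. Its ratio to miR-200a-3p ran from 5.51 to 13.2 in the lower range and from 5.53 to 7.21 in the upper range. The upper range holds WT 5, the only WT liver whose ratio the Mir483Pat-KO livers reached. The log2 fold change of miR-429-3p was -0.29 within the lower range and -0.20 with the range as a factor. With the library index number as a covariate it turned to 0.34 (SE 0.185). The index numbers are 37 to 41 for WT and 42 to 48 for Mir483Pat-KO, so index and genotype cannot be told apart.

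The remaining members gave smaller differences. miR-200b-3p was 132 ± 13.3 CPM in WT and 151 ± 21.1 CPM in Mir483Pat-KO, a log2 fold change of 0.19 (95% interval -0.042 to 0.43, adjusted p of 0.436 by edgeR). miR-200c-3p was 10.9 ± 5.27 and 11.7 ± 4.36 CPM, a log2 fold change of 0.12 with an interval of -0.73 to 0.96. miR-141-3p was 72.9 ± 36.1 and 72.5 ± 30.0 CPM, a log2 fold change of 0.0061 with an interval of -0.68 to 0.69. For the chromosome 6 members the intervals reach beyond a change of 1.5-fold in either direction, so differences of that size were not excluded at this depth and spread.

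**Figure D3:**
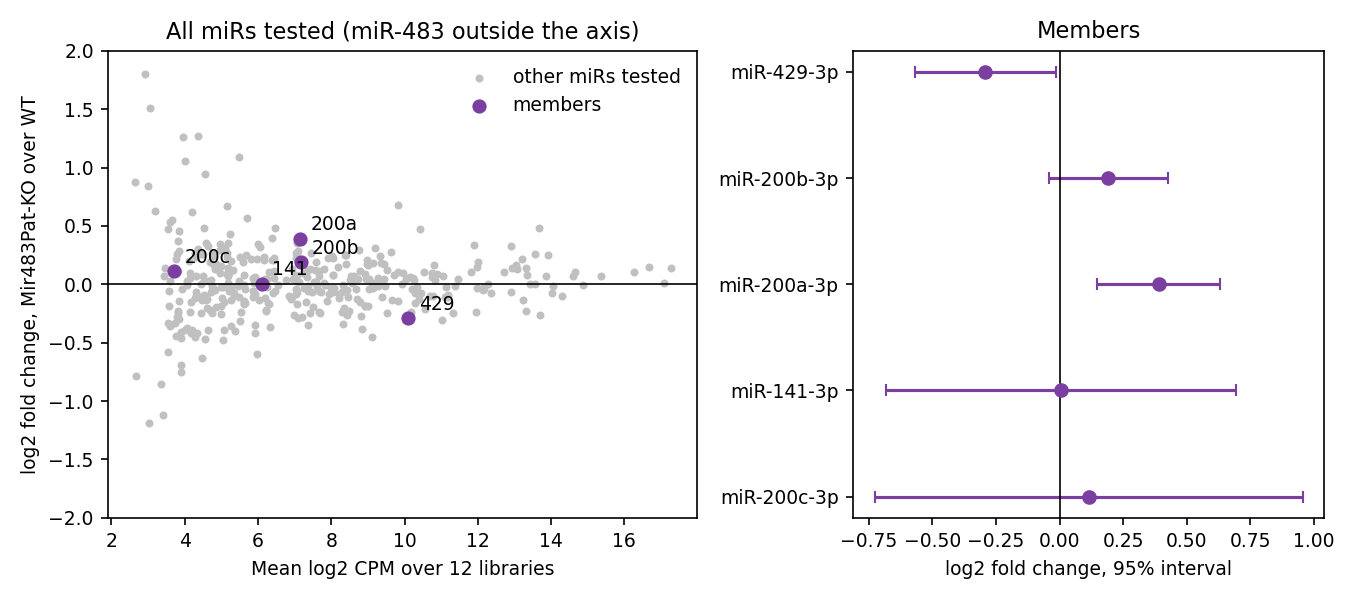
Left, the log2 fold change of Mir483Pat-KO over WT against the mean log2 CPM for the miRs tested, with the 5 members in purple and both arms of miR-483 outside the axis. Right, the members' log2 fold changes with their 95% intervals, which exclude 0 before adjustment for miR-200a-3p (0.15 to 0.63) and miR-429-3p (-0.57 to -0.014).

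Markers of other cells were examined beside these values, and no miR of the lists that passed the filter was a DEM, beside 2.06% of all miRs tested. The filter kept all hepatocyte, erythroid, endothelial and stellate or smooth muscle markers, 2 of 3 white blood cell, 5 of 7 epithelial, 2 of 3 ciliated and 0 of 2 pancreatic markers. The summed level of 7 epithelial miRs outside the family (the miR-183/96/182 cluster, miR-203-3p, miR-205-5p, miR-375-3p and miR-31-5p) was 840 to 1238 CPM in WT and 825 to 1141 CPM in Mir483Pat-KO. The miRs of ciliated epithelium (miR-34b-5p, miR-34c-5p and miR-449a-5p) summed to 70.0 to 86.0 CPM in WT and 87.3 to 117 CPM in Mir483Pat-KO. These sums did not overlap, and their means were 79.3 CPM in WT and 106 CPM in Mir483Pat-KO. The gap between the nearest livers of the genotypes was narrower than the floor of 2.58 to 4.68 CPM. The difference of the sums was not tested. Most of the sum was miR-34c-5p, with a median of 83.7 CPM beside 12.4 CPM for miR-449a-5p, and miR-34b-5p was at 0 to 4.08 CPM. Among single miRs tested, 2.84% had genotypes that did not overlap. White blood cell miRs (miR-142a-3p, miR-223-3p and miR-150-5p) summed to 2526 to 3440 CPM in WT and 3280 to 3619 CPM in Mir483Pat-KO, with overlap. The remaining lists also overlapped. Hepatocyte miRs summed to 173613 to 201636 CPM in WT (165442 to 214535 in Mir483Pat-KO), erythroid miRs to 22499 to 30119 CPM (24452 to 35550), endothelial miRs to 953 to 1261 CPM (725 to 1221) and stellate or smooth muscle miRs to 29563 to 33148 CPM (29332 to 34612). Pancreatic miRs stayed at or below 8.59 CPM in WT and 11.8 CPM in Mir483Pat-KO. The part of these cells in the levels of miR-200a-3p and miR-429-3p was not tested.

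Co-variation between fetuses was examined on log2 CPM after the mean of each genotype was subtracted, so that a genotype difference cannot create it. The values of a pair share their library and its scaling. The closest pair was miR-200b-3p and miR-200a-3p, with r = 0.79 (permutation p = 0.00563) and rho = 0.84 (permutation p = 0.00274) over 12 livers. Each was the nearest of all 387 other miRs to the other. Without the 2 livers farthest from the median of miR-200b-3p, r was 0.78, and it lay between 0.74 and 0.84 when any 1 liver was left out. After Benjamini-Hochberg adjustment over the 1925 correlations of the members with all miRs tested, however, the adjusted p was 0.432 for r and 0.4928 for rho. None of the 1925 passed the threshold by either measure, and 8.05% had an unadjusted permutation p under 0.05 for r.

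miR-429-3p, from the same cluster, did not follow its neighbours to any comparable degree. Its r was 0.17 with miR-200a-3p (permutation p = 0.545; rho = 0.13, permutation p = 0.675) and 0.045 with miR-200b-3p (permutation p = 0.883; rho = 0.14, permutation p = 0.666). Leaving out single livers gave 0.068 (without Mir483Pat-KO 7) to 0.35 (without WT 5) for the former and -0.15 (without WT 1) to 0.21 (without WT 5) for the latter. How far these correlations differ from that of miR-200b-3p with miR-200a-3p was not tested.

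In the chromosome 6 cluster, miR-200c-3p and miR-141-3p gave r = 0.42 (permutation p = 0.221) and rho = 0.38 (permutation p = 0.261), and 0.48 without the 2 farthest livers. Leaving out single livers gave 0.24 (without WT 3) to 0.63 (without WT 4). The low counts of miR-200c-3p limit how far any correlation of this member can be read. Across the clusters, miR-200b-3p and miR-200c-3p gave r = 0.62 (permutation p = 0.0351) and rho = 0.48 (permutation p = 0.125), and r fell to 0.42 without the 2 farthest livers. The same-seed pair miR-200a-3p and miR-141-3p gave r = 0.40 (permutation p = 0.175; rho = 0.29, permutation p = 0.345), and 0.22 (without Mir483Pat-KO 4) to 0.65 (without WT 5) when single livers were left out. miR-200b-3p and miR-141-3p gave r = 0.38 (permutation p = 0.217; rho = 0.28, permutation p = 0.383), and -0.0072 without the 2 farthest livers, so that this value rests on those livers. Leaving out single livers gave 0.12 (without Mir483Pat-KO 5) to 0.66 (without WT 5). For both of these pairs with miR-141-3p, and for miR-200a-3p with miR-429-3p, r taken within a genotype was negative among the WT livers, which are too few for a correlation of their own, and positive among the Mir483Pat-KO livers, so that the pooled values combine opposite directions. No adjusted p of these pairs was under 0.5.

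**Figure D4:**
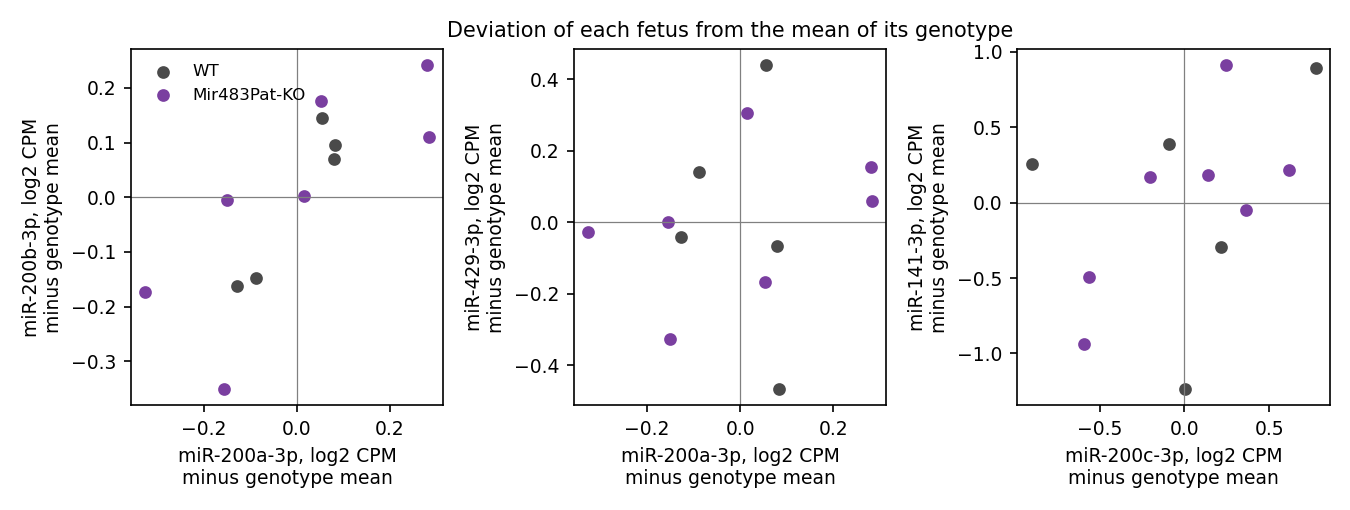
Deviation of each fetus from the mean of its genotype in log2 CPM, for 3 pairs of members taken from the same cluster. The points of miR-200a-3p and miR-200b-3p rise together (r = 0.79), those of miR-200a-3p and miR-429-3p scatter (r = 0.17), and those of miR-200c-3p and miR-141-3p lie in between (r = 0.42).

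The miRs nearest to each member, among the miRs tested whose log2 CPM averaged 5 or more, came mostly from outside the family. After its own cluster partner, miR-200b-3p lay nearest to miR-666-3p (r = 0.76) and miR-7a-5p (r = 0.74). miR-200a-3p lay nearest to miR-666-3p (r = 0.79) and miR-182-5p (r = 0.72). miR-429-3p was nearest to miR-423-3p, at r = 0.92 (permutation p = 0.000690, adjusted p of 0.266), and then to miR-181a-5p (r = 0.82) and miR-181b-5p (r = 0.76). miR-200c-3p was nearest to miR-376c-3p (r = 0.77), and miR-141-3p to miR-1195 (r = 0.78). No correlation of the family passed the adjusted threshold, and these neighbours are given as a description of 12 livers.

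The opposite arms of the hairpins were sparse. miR-200a-5p was read in every library, with 8 to 22 counts, and its 3p arm had 5.20-fold to 15.4-fold more reads. Its level was 15.7 ± 4.10 CPM in WT and 19.1 ± 6.66 CPM in Mir483Pat-KO, a log2 fold change of 0.27 (95% interval -0.36 to 0.90, adjusted p of 0.734 by edgeR). miR-200b-5p had 2 to 5 reads in 5 of the 12 libraries and 0 in the others. miR-429-5p and miR-200c-5p were listed at 0 in all 12, although miR-429-3p was the most abundant member. miR-141-5p had 49 reads in Mir483Pat-KO 4 and 0 in each of the other 11 libraries. The sequence of the Mir141 hairpin is shown for the place of that arm, with miR-141-3p in capitals and the 5p arm to its left.
Mir141: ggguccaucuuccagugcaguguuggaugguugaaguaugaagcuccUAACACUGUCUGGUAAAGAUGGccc
miR-141-5p: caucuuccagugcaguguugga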

How the data were processed

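The authors prepared the libraries from total RNA with the TruSeq Small RNA kit and aligned and counted reads with miRge 3.0. The deposited values are raw counts per mature miR, without normalization or pooling. The reference used by miRge and the adapter trimming are not given in the sources used here. Genotypes and replicate numbers came from the sample labels, and columns were assigned by the number in the labels that is read here as an animal number. Litters and dams were not analysed here. Near-identical libraries were looked for by chi-square among the 31 same-genotype pairs, and none was found.

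miRs were kept by filterByExpr (minimum count 10, minimum total 15), which held 99.87% of the counts in the library where this share was lowest. Counts were scaled by TMM and genotypes compared in edgeR 4.0.16 (R 4.3.3) with glmQLFit (legacy = TRUE) and glmQLFTest, with genotype as the single term and p adjusted by Benjamini-Hochberg over all 388 miRs. Normalized levels are TMM CPM. CPM of each miR were also compared by an exact permutation test. Correlations used log2 CPM (prior count 2) centred on genotype, with 100000 permutations within genotype. Ratios, shares and sums over members were described without a test. Floors cover counting error only. The members, marker lists and tests were chosen with earlier results of these data known.

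The named miRs are the members, their 5p arms, both arms of miR-483, the marker lists and, for each member, up to 3 miRs of highest r. Alternatives were RLE, upper-quartile and library size scaling, other filters, DESeq2 1.42.0, edgeR's newer dispersion and its robust fit, voom from limma 3.58.1, a block for replicate number, terms for the animal-number range or the library index number, and leaving out each fetus. The lower animal-number range alone and replicates 1 to 5 without the block, as fits of the genotype difference, were added after the data were seen. Counts were simulated over 388 miRs, with 68 changed 1.5-fold, 67 changed 2-fold and 65 changed 4-fold. Of these, 75.0%, 83.6% and 100% were called, and 1.71% of 175 calls were false. With so many changes the adjusted threshold is easier to pass than in the real data, where 8 miRs were called. These shares therefore do not give the share of real changes that the comparison of genotypes would call. Sequences and positions are from RefSeq and GENCODE M21 (GRCm38). mRNA was not analysed here.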

Additional observations from a re-analysis of the deposited data

Results flagged for a closer look

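miR-141-5p stood out because a single fetus lay far from the other livers of its genotype. Its level was 66.5 CPM (49 reads) in Mir483Pat-KO 4 and 0 in the other 6 Mir483Pat-KO livers and in all 5 WT livers. The same liver had the highest count of the opposite arm, 95 reads of miR-141-3p, so that the 5p arm reached 51.6% of the 3p arm there. At that share the other 11 libraries would hold between 13.4 and 46.9 reads of the 5p arm. Over all miRs listed, 97 had reads in exactly 1 library, with a median of 5 reads, and miR-141-5p had the highest count among them. Of the 97, 6 were in Mir483Pat-KO 4, where the other libraries held between 3 and 14. Counts of 1 do not occur in these data, where 2 is the smallest count other than 0. Among the 27 groups of values examined for the family this was the only value so far from its group. The rule is set to mark about 1 in 20 groups of normally spread values. That rate does not apply here, where every other value of the group was 0, and the groups share counts.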

How the results depend on the processing

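miR-200a-3p kept a positive log2 fold change in all 13 alternative fits to the 12 libraries or to replicates 1 to 5 (0.32 to 0.50) and passed the threshold in 1, DESeq2 (0.37, adjusted p of 0.0389, other alternatives up to 0.759). Leaving out single fetuses gave 0.32 to 0.43 and passed without Mir483Pat-KO 3 alone. miR-429-3p turned from -0.29 to 0.34 with the library index number as a covariate, which runs with genotype, and ranged from -0.39 to -0.17 without single fetuses. miR-141-3p, at 0.0061, changed sign with RLE scaling (-0.0074), library size alone (-0.061), no filter (-0.018), at least 10 counts (-0.0078), at least 1 CPM in 5 libraries (-0.011), DESeq2 (-0.016), the lower animal-number range (-0.034), replicates 1 to 5 without the block (-0.0030), and without single fetuses (-0.21 to 0.23). miR-200c-3p ranged from -0.087 to 0.34 without single fetuses and had no value where the filter removed it, with at least 10 counts in every library and with the block among others. DESeq2 gave no adjusted p for miR-200c-3p and miR-141-3p. For miR-141-3p the log2 fold change was 0.23 with the animal-number range as a factor and 0.39 with the library index number.

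The number of miRs called over the whole table, 8, became 14 with library size alone, 26 with DESeq2, 5 with the animal-number range as a factor, 3 with the index number, 2 in the lower range alone and 3 to 12 without single fetuses. It was 3 without WT 3, 5 without WT 2 and 4 without each of Mir483Pat-KO 4, 5, 6 and 7. The cause was not tested. Same-numbered fetuses showed no common deviation (r of -0.12, 0.086, -0.24, -0.11 and 0.23). These values give no sign that the numbers pair the fetuses, but so few of them cannot exclude a weak pairing. With the replicate number as a block, 3 miRs were called, against 2 in the same libraries without the block, and the block gave 0.38 for miR-200a-3p, -0.20 for miR-429-3p, 0.13 for miR-200b-3p and 0.0082 for miR-141-3p.

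Correlations of miR-429-3p had no stable sign. That with miR-200b-3p was -0.065 with library size alone, -0.20 without centring and -0.15 to 0.21 without single fetuses. That with miR-200a-3p was -0.25 without centring. That with miR-200c-3p was -0.057 without centring, -0.0054 at a prior count of 0.5, -0.099 without the 2 farthest livers and -0.18 to 0.15 without single fetuses. That with miR-141-3p was -0.30 in the lower range and -0.095 to 0.55 without single fetuses, the lowest without WT 5. miR-200b-3p with miR-141-3p gave -0.0072 without the 2 farthest livers, while miR-200b-3p with miR-200a-3p stayed between 0.78 and 0.88 in 5 alternatives. The log2 difference of the cluster ratio, -0.21, ran from -0.28 to 0.24 in 4 alternatives and from -0.44 to -0.032 without single fetuses, always within the SD between WT fetuses. Depth limits miR-200c-3p most, at 4 to 14 counts.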
